A study of Homo sapiens with 6 samples.

Results

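The genes examined were those that carry tryptophan along the kynurenine pathway, namely IDO1, IDO2, TDO2, AFMID, KYNU, KMO, HAAO and QPRT, together with AHR, the receptor for kynurenine. They were taken by symbol, and all 9 were among the 37887 symbols of the count table. RNA-seq had been performed on BT-549 cells, an established human triple-negative breast cancer line, with 3 control and 3 IRF1shRNA samples. The titles give the controls a control shRNA and the other samples a short hairpin RNA against IRF1, while the series text describes 1 line with a doxycycline-inducible IRF1 hairpin in both groups. Controls received DMSO (0.1%) and IRF1shRNA samples doxycycline (500 ng/ml). No control received doxycycline and a single hairpin was used, so the drug, the hairpin and the loss of IRF1 cannot be told apart. Transduced cells had been selected with puromycin, and the duration of treatment is not given for these libraries in the sources used here.

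Tryptophan that is not used for protein synthesis is broken down mainly through the kynurenine pathway. The dioxygenases IDO1, IDO2 and TDO2 open its indole ring to give formylkynurenine, which the formamidase AFMID turns into kynurenine. The hydroxylase KMO and the hydrolase KYNU then lead towards hydroxyanthranilate, the dioxygenase HAAO acts on that product, and QPRT turns the resulting quinolinate into a precursor of NAD. IDO1 is a classical interferon-induced gene, whereas TDO2 is best known as the liver enzyme. In tumors the pathway is known for starving T cells of tryptophan and for making kynurenine, which activates AHR, a transcription factor that moves to the nucleus when it binds a ligand.

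Library totals lay between 55143808 and 160436234 counts, with IRF1shRNA replicate 2 the least deeply sequenced. A total of 3 counts, taken as the smallest detected number, corresponded to between 0.0187 and 0.0544 CPM (counts scaled to a common library total). Both reads of a pair appear to have been counted singly. Counts, including this floor and those of the scarce genes below, therefore overstate the number of sequenced fragments. Expression is given as TMM-scaled CPM, that is, the count relative to a library total corrected for composition, which can be compared between samples for a gene but not between genes of different length. IRF1 was at 45.3, 48.1 and 51.5 CPM in the controls and at 13.8, 14.9 and 14.6 CPM in the IRF1shRNA samples, or 29.9% of control. In GENCODE release 29, 22% of its exonic bases are shared with C5orf56, a gene of the opposite strand that is also in the count table. The part of C5orf56 in the IRF1 values was not tested. The 6 mesenchymal markers examined summed to between 4708 and 4829 CPM in the controls and to between 4101 and 4346 CPM in the IRF1shRNA samples, with 4 called lower, 1 higher and 1 not called. VIM fell from 918 ± 28.6 to 625 ± 32.9 CPM (SD, n = 3) and SPARC rose from 1197 ± 35.3 to 1374 ± 60.3 CPM. The luminal markers summed to between 56.8 and 63.8 and to between 39.3 and 43.0 CPM, most of it ERBB2. Of the 7 tested 4 were called lower and 0 higher. ESR1 was too low to be tested, at 0.0163 ± 0.0162 CPM in the controls and 0.101 ± 0.0377 CPM in the IRF1shRNA samples. FOXA1 went from 0.150 ± 0.0438 to 0.269 ± 0.0508 CPM and was not called. Since IDO1, KYNU and KMO are also genes of macrophages and dendritic cells, 8 leukocyte markers were read beside them. These summed to between 3.22 and 3.63 CPM in the controls and to between 4.11 and 4.92 CPM in the IRF1shRNA samples, and of the 4 tested 1 was called higher (CD14) and 0 lower. PTPRC was at 0.526 ± 0.0324 and 0.481 ± 0.243 CPM, and CD3E was at 0 in the controls. The 5 hepatocyte markers, read beside TDO2, summed to between 0.243 and 0.310 and to between 0.324 and 0.865 CPM, and of the 2 tested 1 was called higher (ALB, 0.0693 ± 0.0228 to 0.340 ± 0.170 CPM) and 0 lower. Of all genes tested, 26.4% were called lower and 24.1% higher. The part of these markers in the results was not tested. In bulk RNA, fewer expressing cells and less RNA per cell cannot be told apart.

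Silencing IRF1 was accompanied by lower transcript levels of some pathway enzymes, among them the dioxygenase IDO1 and QPRT at the end, and of the receptor AHR. TDO2 and HAAO were not called. Of the 9 genes, 8 were abundant enough to be tested. IDO1, KMO, KYNU, QPRT and AHR were called lower (62.5% of those tested, where 26.4% of all 18851 genes tested were called lower and 50.5% in either direction), and AFMID was called higher (12.5%, against 24.1% of all genes). A call is an adjusted p under 0.05, from the quasi-likelihood test of edgeR and the Benjamini-Hochberg method over all genes tested. IDO1, QPRT and KMO fell by more than 2-fold, or 3 of 8 genes tested (37.5%), where 4.43% of all genes did so. The sample ranges of the groups did not overlap for the same 5 lower genes and for AFMID, a pattern found downward in 29.5% and upward in 27.3% of all genes. The median log2 fold change was −0.66 over the 8 genes and −0.0024 over all genes tested. The members had been proposed with results of these data known, so these shares describe them and do not test the pathway as a whole.

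**Figure D1:**
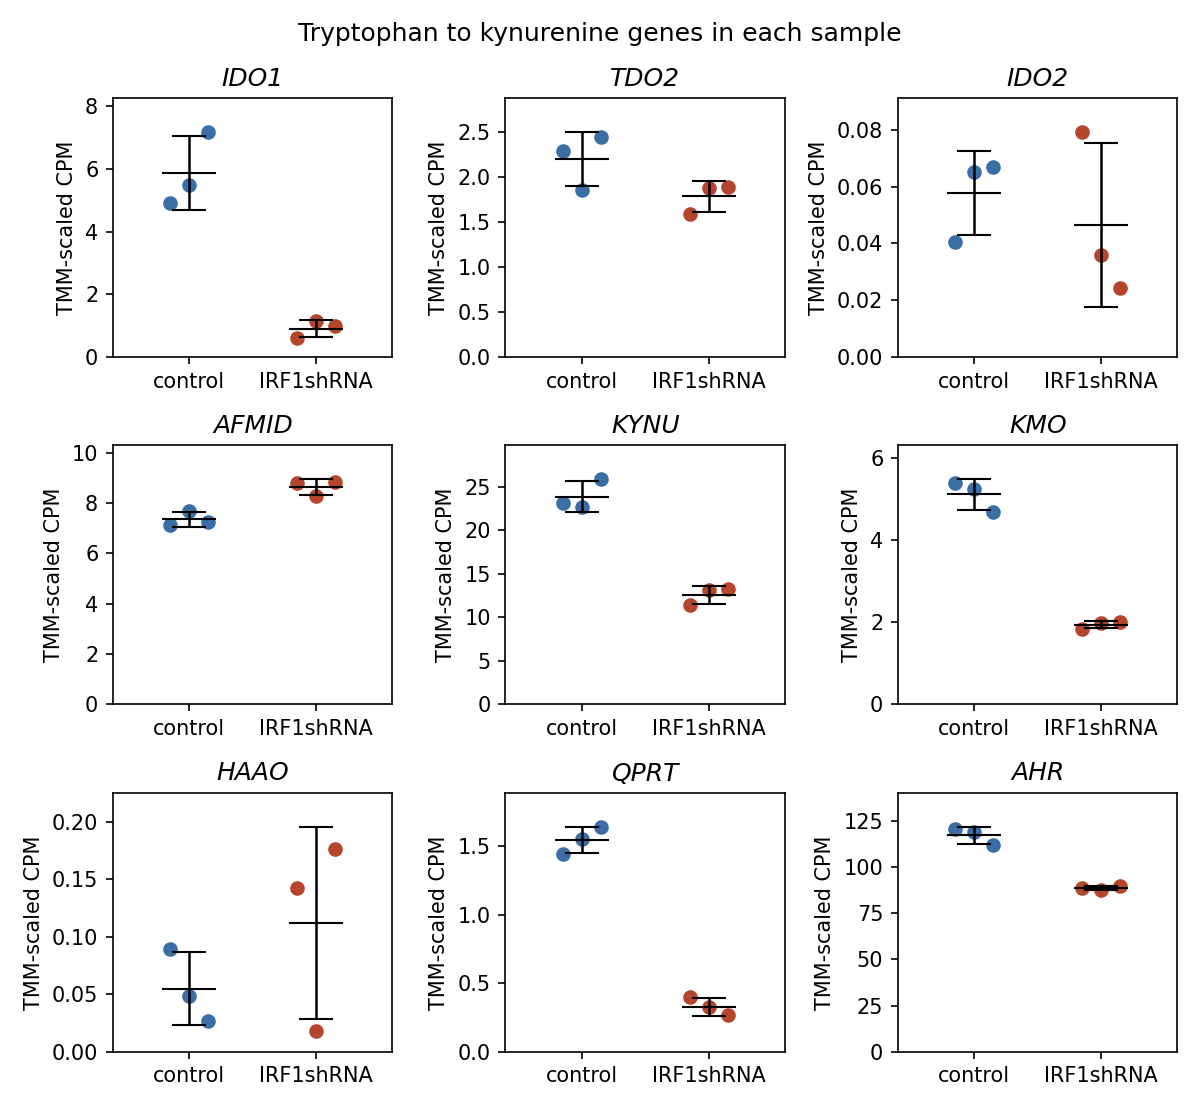
TMM-scaled CPM (y axis, linear, from 0, with its own scale in each panel) of the 9 genes in the 3 control (blue) and 3 IRF1shRNA (red) samples, replicates 1 to 3 from left to right, with the mean and SD of each group as horizontal line and error bar. The red points lie below all blue points for IDO1, KYNU, KMO, QPRT and AHR and above them for AFMID, while the points of TDO2, IDO2 and HAAO overlap between the groups.

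The dioxygenases that begin the pathway were considered first. IDO1 was at 4.93, 5.49 and 7.19 CPM in the controls and at 0.595, 1.14 and 0.978 CPM in the IRF1shRNA samples, here and throughout in the order of replicates 1 to 3. Every silenced sample was thus well below the lowest control. The mean fell from 5.87 ± 1.18 to 0.903 ± 0.278 CPM (SD, n = 3), or 15.4% of control, and only 77 of the genes tested had a lower log2 fold change. That value was −2.75 ± 0.18 (SE, 95% interval −3.14 to −2.37, edgeR adjusted p = 1.17e-09).

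TDO2, which catalyzes the same reaction, changed far less. It was at 2.29, 1.86 and 2.45 CPM in the controls and at 1.59, 1.87 and 1.89 CPM in the IRF1shRNA samples. The ranges overlapped, since control replicate 2 lay below IRF1shRNA replicates 2 and 3. The log2 fold change was −0.31 ± 0.14 (SE), and the 95% interval of −0.60 to −0.02 excluded 0 before adjustment, but TDO2 was not called (edgeR adjusted p = 0.0724). Without control replicate 2 it was called, at −0.41 (edgeR adjusted p = 0.0308, in a range from 0.0308 to 0.265 over its alternatives).

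IDO2, the paralog of IDO1, was close to the limit of detection. It had 5, 8 and 10 counts in the controls and 10, 2 and 4 in the IRF1shRNA samples, which is 0.0243 to 0.0794 CPM over the 6 libraries. The count of 2, in IRF1shRNA replicate 2, was under the floor of 3. IDO2 did not pass the filter on low counts. Fitted with no filter, its log2 fold change was −0.29 ± 0.88 (SE, edgeR adjusted p = 0.843), so no difference was detectable at this depth.

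The order of IDO1 and TDO2 within a sample differed between the groups. Counts of different genes can be set side by side only per length, and annotated lengths depend on the transcripts included, so the ratio was computed over all annotated exons and over the shortest principal transcript (1.71 kb for IDO1 and 1.70 kb for TDO2). Over the principal transcripts, the IDO1 to TDO2 ratio per length was 2.14, 2.94 and 2.92 in the controls and 0.373, 0.603 and 0.515 in the IRF1shRNA samples. IDO1 was thus the more abundant transcript in each control, and TDO2 in each silenced sample. Over all exons the ratio was 3.47, 4.76 and 4.74 in the controls and 0.605, 0.978 and 0.836 in the IRF1shRNA samples, the highest of which was close to 1. By either length the log2 difference of the ratio was −2.44, with p = 0.1 in a two-sided exact permutation test, the smallest p that 3 samples against 3 allow. The ratio is formed from the values of IDO1 and TDO2 given above, so it describes them and adds no separate support.

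**Figure D2:**
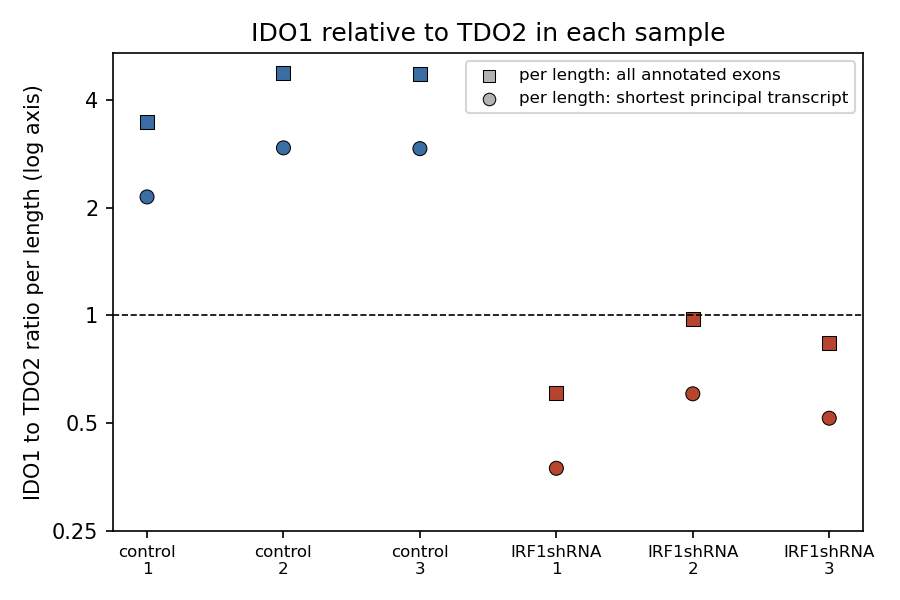
Ratio of IDO1 to TDO2 per length (y axis, log scale) in each of the 6 samples (x axis), with lengths from all annotated exons (squares) or from the shortest principal transcript (circles), and a dashed line where both genes are equal. Control samples (blue) lie between 2.14 and 4.76 and IRF1shRNA samples (red) between 0.373 and 0.978.

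AFMID, which releases kynurenine from formylkynurenine, was the gene called higher. It was at 7.13, 7.67 and 7.24 CPM in the controls and at 8.79, 8.29 and 8.84 CPM in the IRF1shRNA samples. The groups did not overlap, but the change was small, from 7.35 ± 0.284 to 8.64 ± 0.307 CPM (SD, n = 3 each). The log2 fold change was 0.24 ± 0.07 (SE, edgeR adjusted p = 0.0131). The call was lost without IRF1shRNA replicate 1 (0.22, edgeR adjusted p = 0.0524) and without IRF1shRNA replicate 3 (0.22, edgeR adjusted p = 0.0522), in a range from 0.00407 to 0.0524 over its alternatives.

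KYNU and KMO, the members that act on kynurenine, were both lower. KYNU, the hydrolase that cleaves kynurenine and hydroxykynurenine, was at 23.1, 22.6 and 25.8 CPM in the controls and at 11.4, 13.2 and 13.2 CPM in the IRF1shRNA samples, or 52.8% of control. On the log2 scale KYNU fell by 0.93 ± 0.08 (SE, edgeR adjusted p = 1.80e-08). KMO, the mitochondrial flavoprotein that hydroxylates kynurenine, was at 5.39, 5.24 and 4.69 CPM in the controls and at 1.84, 1.98 and 1.999 CPM in the IRF1shRNA samples. The 3 silenced samples were nearly alike, at 38.0% of control on average. The log2 fold change of KMO was −1.40 ± 0.10 (SE, 95% interval −1.61 to −1.18, edgeR adjusted p = 4.63e-09).

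The KMO value carries a limit of annotation. In GENCODE release 29, 28.4% of its exonic bases are shared with OPN3, a gene of the opposite strand that encodes an opsin. OPN3 fell as well, from 6.63 ± 0.299 to 2.96 ± 0.233 CPM (SD, n = 3), or by 1.18 ± 0.09 (SE) on the log2 scale. The libraries were stranded, but whether strand was used in counting is not given in the sources used here, so counts of KMO and OPN3 may not be fully separate. Their part in each other's values was not tested. OPN3 was named after its values were seen.

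The lower part of the pathway held the least abundant and the most strongly lowered of the downstream enzymes. HAAO, which opens the ring of hydroxyanthranilate, had 11, 6 and 4 counts in the controls and 18, 1 and 29 in the IRF1shRNA samples. In CPM this was 0.0893, 0.0490 and 0.0268 against 0.143, 0.0180 and 0.176, so that IRF1shRNA replicate 2, at 1 count and under the floor, was below every control while the other silenced samples were above. The log2 fold change of 1.22 ± 0.62 (SE) was not called (95% interval −0.08 to 2.53, edgeR adjusted p = 0.113). Without IRF1shRNA replicate 2 HAAO was called higher, at 1.56 (edgeR adjusted p = 0.0339, in a range from 0.0339 to 0.449 over its alternatives).

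QPRT, which commits quinolinate to NAD synthesis, was at 1.44, 1.55 and 1.64 CPM in the controls and at 0.397, 0.324 and 0.267 CPM in the IRF1shRNA samples. The groups were well apart, and the mean of the silenced samples was 21.3% of control. This rested on 178 to 244 counts in the controls and on 18 to 50 counts in the IRF1shRNA samples, all above the floor. The log2 fold change of QPRT was −2.24 ± 0.20 (SE, 95% interval −2.66 to −1.82, edgeR adjusted p = 5.23e-08). Only 127 of the genes tested had a lower log2 fold change, which places QPRT next to IDO1 among these genes. In GENCODE release 29 a gene model on the same strand shares 15.7% of the exonic bases of QPRT and has no row in the count table.

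**Figure D3:**
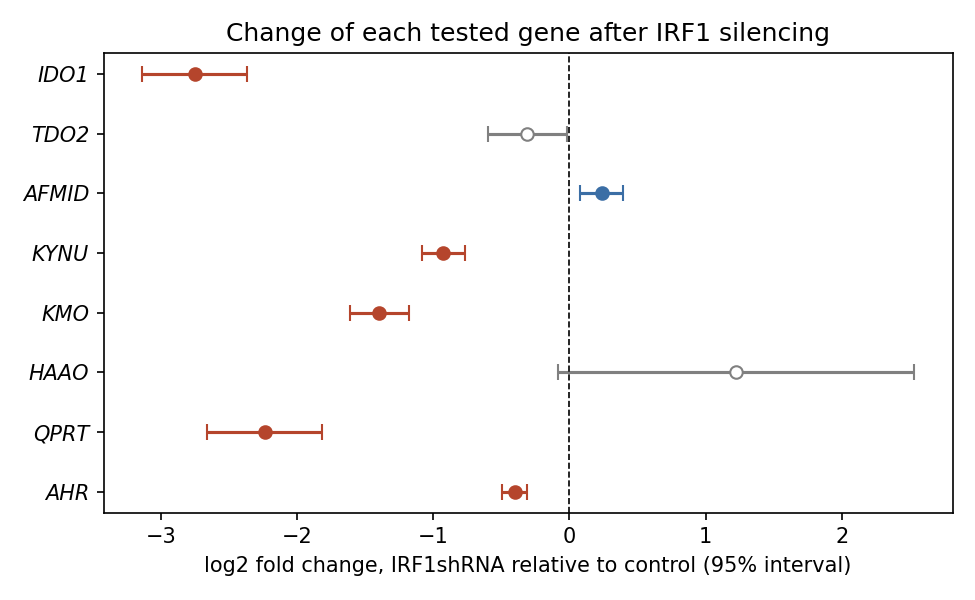
Log2 fold change of IRF1shRNA relative to control (x axis) with its 95% interval for the 8 genes tested, in pathway order from top to bottom, with called genes filled (red lower, blue higher), other genes open, and a dashed line at the median of all genes tested. IDO1 at −2.75 and QPRT at −2.24 lie farthest to the left, and the interval of HAAO is the widest.

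AHR was the most abundant of the 9 genes and fell the least among those called lower. It was at 120, 119 and 112 CPM in the controls and at 88.8, 87.5 and 89.7 CPM in the IRF1shRNA samples, which were within a narrow range below the lowest control. Its level was 75.7% of control, a log2 fold change of −0.40 ± 0.04 (SE, edgeR adjusted p = 4.73e-07). A log2 fold change below that of AHR was found for 19.3% of all genes tested. Among its overlaps in GENCODE release 29, a second gene model on the same strand shares 29.4% of the exonic bases of AHR and has no row of its own in the count table.

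Levels were also compared between the 9 genes per length, in RPKM (CPM divided by the length in kilobases). Over the shortest principal transcripts the control order was AHR (18.7 ± 0.738 RPKM), KYNU (15.1 ± 1.10), AFMID (4.25 ± 0.164), IDO1 (3.43 ± 0.690), TDO2 (1.29 ± 0.179), KMO (0.970 ± 0.0701), QPRT (0.659 ± 0.0411), HAAO (0.0435 ± 0.0250) and IDO2 (0.0251 ± 0.00646; SD, n = 3). Among these neighbours the control samples of AFMID and IDO1 overlapped, as did those of HAAO and IDO2. This order depended in part on the length used. Over all annotated exons KYNU, whose exons span 17.6 kb but whose shortest principal transcript spans 1.58 kb, was at 1.36 ± 0.0984 RPKM, below AFMID (1.82 ± 0.0703) and IDO1 (1.7997 ± 0.361). TDO2 was then at 0.418 ± 0.0577 RPKM, below KMO (0.859 ± 0.0620) and close to QPRT (0.424 ± 0.0264). AHR was first and HAAO and IDO2 were last under both lengths. In the IRF1shRNA samples over principal transcripts, AHR was at 14.1 ± 0.177, KYNU at 7.98 ± 0.656, AFMID at 4.99 ± 0.177, TDO2 at 1.05 ± 0.100, IDO1 at 0.528 ± 0.162, KMO at 0.369 ± 0.0164, QPRT at 0.141 ± 0.0277, HAAO at 0.0888 ± 0.0659 and IDO2 at 0.0203 ± 0.0126 RPKM. The mean of IDO1 therefore moved from above to below that of TDO2, and IDO1 overlapped KMO in its sample range. Over all annotated exons the IRF1shRNA samples had TDO2 at 0.339 ± 0.0323, KMO at 0.326 ± 0.0145 and IDO1 at 0.277 ± 0.0851 RPKM. By that length the sample ranges of IDO1 (0.183 to 0.348) and TDO2 (0.302 to 0.359) overlapped.

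Genes with a course like that of IDO1 were sought among 13033 genes with at least 1 CPM in the controls, by the Euclidean distance of centred log2 CPM over the 6 samples. The 5 nearest were IFIT2 (distance 0.477), DSP (0.4997), TRANK1 (0.508), OASL (0.511) and PARP9 (0.546). IFIT2, OASL and PARP9 are interferon-stimulated genes, and DSP encodes desmoplakin of the desmosome. IFIT2 was at 48.3, 62.0 and 71.6 CPM in the controls and at 7.84, 9.66 and 9.35 CPM in the IRF1shRNA samples. As for IDO1, control replicate 3 was its highest library and IRF1shRNA replicate 1 its lowest. The log2 fold changes of the 5 genes ran from −3.07 (TRANK1) to −2.60 (PARP9). The distance includes the difference between the groups, which is large for IDO1, so the nearest genes are by construction genes with a similar fall. It uses the same 6 libraries, so it describes likeness of course and gives no test.

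The promoters in RefSeq (GRCh38.p14) were then searched for the core of the interferon-stimulated response element, the DNA motif to which IRF1 binds. The window ran from 250 bases before to 50 bases after each start site, a promoter was searched for 7 of the 9 genes, and both strands were read. The promoters of IDO1 and IDO2 were not analysed here. The full core, GAAA repeated after a gap of 2 bases, occurred in 3.57% of 35116 promoters and in 0 of these 7 genes. The shorter core AANNGAAA, which is contained in the full one, occurred in 22.8% of promoters and in those of KMO and TDO2, at 91 and 98 bases before the start site, but not in those of KYNU, QPRT, AFMID, HAAO and AHR. The charging enzyme WARS1, which is no member but uses the same amino acid, held the full core 55 bases before a start site. The short core occurred there too, at 59 and 53 bases before that site, overlapping the full core. Another promoter of WARS1 held neither core. The promoter of IRF1, also searched, held 0 matches of either core. These stretches are shown because they are the places where such letters occur in the promoters searched for the members, IRF1 and WARS1. The motif is in capitals, for WARS1 the full core only, and each sequence is written 5′ to 3′ on the strand of the gene.
KMO, chr1:241532277-241532304, plus strand: taatactgtcAAGGGAAAttagccctga
TDO2, chr4:155903588-155903615, plus strand: gttctgtaccAATGGAAAtgagaagtta
WARS1, chr14:100375383-100375412, minus strand: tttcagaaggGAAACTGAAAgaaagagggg
A match is a description of letters. The short core was held by KMO, which fell, and by TDO2, which was not called. KYNU and QPRT fell and held no match in this window. The part of such matches in the changes was not tested.

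Genes around the pathway were read from lists. For comparison, 26.4% of all genes tested were called lower and 24.1% higher, with a median log2 fold change of −0.0024. Transporters and enzymes that supply and charge tryptophan numbered 10, of which 7 were tested, with 3 called lower, 2 called higher and a median log2 fold change of −0.02. The lower genes were WARS1, listed as WARS (tryptophanyl-tRNA synthetase, −0.62 ± 0.05, SE), and both chains of the large neutral amino acid transporter that carries tryptophan and kynurenine, SLC7A5 (−0.60 ± 0.05) and SLC3A2 (−0.45 ± 0.04). SLC7A5 was at 876, 873 and 923 CPM in the controls and at 596, 551 and 610 CPM in the IRF1shRNA samples, with no overlap. The higher genes were the lysosomal amino acid transporter SLC36A4 (0.42 ± 0.05) and EIF2AK4 (0.23 ± 0.05), which encodes GCN2, the kinase that senses uncharged tRNA.

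Of 16 genes in other branches of tryptophan catabolism, 15 were listed and 12 tested, with 3 called lower, 3 called higher and a median of 0.02. These counts lay near the shares over all genes tested (26.4% lower and 24.1% higher). The lower genes were IL4I1, a secreted oxidase of tryptophan that yields AHR ligands, the kynurenine aminotransferase AADAT (−0.66 ± 0.22, SE) and the amine oxidase MAOB (−1.23 ± 0.43). IL4I1 was at 1.29, 1.89 and 1.66 CPM in the controls and at 0.444, 0.613 and 0.899 CPM in the IRF1shRNA samples, a log2 fold change of −1.27 ± 0.23 (edgeR adjusted p = 1.32e-04). ALDH8A1, a dehydrogenase that takes the pathway away from quinolinate, was called higher at 1.56 ± 0.36, but from 0.168 ± 0.0571 to 0.496 ± 0.178 CPM (SD, n = 3), and GOT2, an aspartate aminotransferase that also acts on kynurenine, at 0.15 ± 0.04. The kynurenine aminotransferase KYAT3 was the other gene called higher, at 0.23 ± 0.08, but not without control replicate 2 (0.16) or IRF1shRNA replicates 1 (0.23) or 2 (0.17). AADAT was not called without control replicate 2 (−0.49), and MAOB was not called without control replicate 2 (−0.88) or IRF1shRNA replicates 2 (−1.07) or 3 (−1.05). Enzymes of serotonin and melatonin synthesis were scarce, with TPH1 at 0.0818 ± 0.0359 CPM in the controls and not called, and TPH2 and DDC too low to be tested. KYAT3, TPH1, TPH2 and DDC were named after their values were seen.

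Downstream of QPRT, the NAD synthesis list held 11 genes, of which 10 were tested, with 4 called lower, 3 called higher and a median of −0.10. The shares over all genes tested were 26.4% lower and 24.1% higher. NMNAT1, the nuclear enzyme that makes NAD from mononucleotides, was at 11.3, 12.4 and 11.5 CPM in the controls and at 24.1, 24.8 and 21.7 CPM in the IRF1shRNA samples. It rose by 1.001 ± 0.07 on the log2 scale (SE, edgeR adjusted p = 2.54e-09). NMRK1, a nicotinamide riboside kinase, rose by 1.16 ± 0.17 from a low level of 1.02 ± 0.202 CPM, and NNMT, which methylates nicotinamide, by 0.40 ± 0.04. NMNAT2, the cytosolic and axonal counterpart of NMNAT1, had a log2 fold change of −0.73 ± 0.07 and the NAD kinase NADK of −0.47 ± 0.04. NAMPT, the rate-limiting enzyme of the salvage route that bypasses QPRT, was at 546 ± 21.2 CPM in the controls and 493 ± 16.8 CPM in the IRF1shRNA samples, with a log2 fold change of −0.15 ± 0.04. It was not called without IRF1shRNA replicate 1 (−0.12), with upper quartile scaling (−0.10) or with library size only (−0.0977), and was named after its values were seen.

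The AHR list held 14 partners and targets, of which 11 were tested, with 6 called lower, 1 called higher and a median of −0.15. The shares over all genes tested were 26.4% lower and 24.1% higher. The count of lower genes in the list was 3 without IRF1shRNA replicate 3. Among the partners, the co-chaperone PTGES3 (−0.34 ± 0.04, SE) and the chaperone HSP90AB1 (−0.15 ± 0.05) were lower, ARNT, the factor with which AHR binds DNA, was higher (0.33 ± 0.04), and its paralog ARNT2 was lower (−0.55 ± 0.16) from 2.35 ± 0.460 CPM. HSP90AB1 was not called without control replicates 2 (−0.14) or 3 (−0.16), without IRF1shRNA replicates 1 (−0.12) or 3 (−0.13), or with upper quartile scaling (−0.11) or library size only (−0.0995). Of the targets tested, NQO1, CYP1A1 and ALDH3A1 were called lower and the others were not called. NQO1, a quinone reductase that is also a target of NRF2, was at 435, 424 and 448 CPM in the controls and at 235, 249 and 229 CPM in the IRF1shRNA samples, a log2 fold change of −0.87 ± 0.04 (edgeR adjusted p = 4.54e-11). CYP1A1, the best known AHR target, was low in both groups and fell from 1.47 ± 0.209 to 1.05 ± 0.0734 CPM (SD, n = 3), a log2 fold change of −0.47 ± 0.16. That call was lost without control replicates 1 (−0.37) or 2 (−0.45), and without IRF1shRNA replicate 3 (−0.47). ALDH3A1, an aldehyde dehydrogenase, was scarce, at 0.161 ± 0.0505 and 0.0601 ± 0.0209 CPM, with 2 counts in IRF1shRNA replicate 2, and its log2 fold change was −1.31 ± 0.49. It was not called by DESeq2 or with no filter, nor without control replicates 1 (−1.35) or 3 (−1.04) or any single IRF1shRNA replicate (−1.45 to −1.15), and was named after its values were seen.

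CYP1B1, TIPARP and AHRR were not called. CYP1B1 was at 321 ± 29.6 CPM in the controls and 315 ± 11.5 CPM in the IRF1shRNA samples (SD, n = 3), with a log2 fold change of −0.03 ± 0.06 (SE) that changed sign with the scaling. TIPARP, which modifies AHR and limits its activity, had a log2 fold change of −0.05 ± 0.05, and AHRR, the AHR repressor, of 0.16 ± 0.10. The adjusted p-values of these 3 genes in the edgeR test were 0.715, 0.504 and 0.191.

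**Figure D4:**
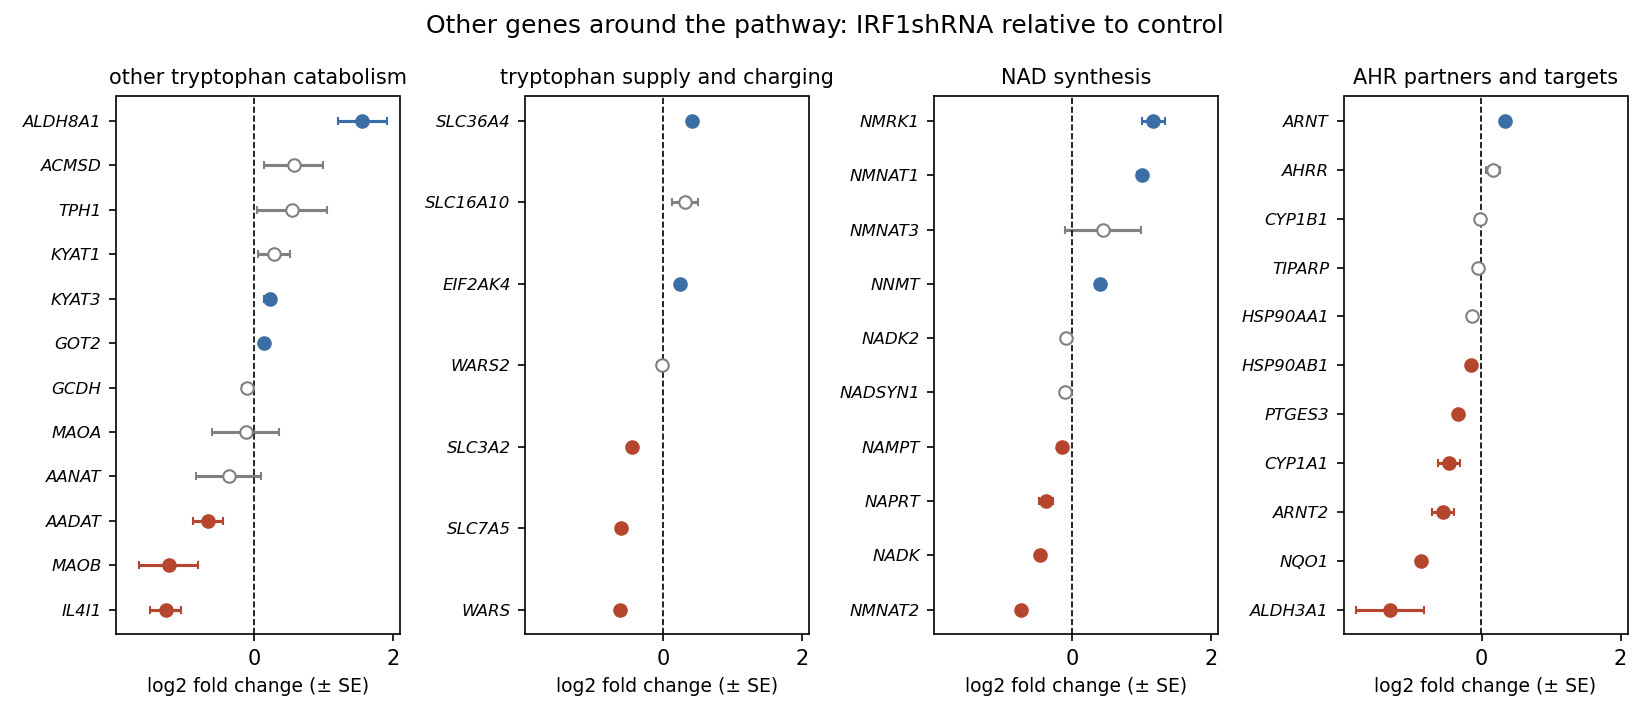
Log2 fold change (x axis) with its SE for each tested gene of the 4 lists around the pathway, with genes called lower in red, genes called higher in blue, other genes open, and a dashed line at the median of all genes tested. WARS, SLC7A5 and SLC3A2 lie left of the line in the supply list, and NMNAT1 and NMRK1 lie near or above 1 in the NAD list.

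The 9 genes lie on 7 chromosomes in GENCODE release 29 (GRCh38). QPRT was found on chromosome 16 (29679008 to 29698699), AFMID on chromosome 17 (78187317 to 78207701), AHR on chromosome 7 (16916359 to 17346152), TDO2 on chromosome 4 (155854738 to 155920406) and KMO on chromosome 1 (241532134 to 241595642), all on the plus strand. KYNU (142877498 to 143055832, plus strand) and HAAO (42767089 to 42792593, minus strand) are both on chromosome 2, far from each other. IDO1 (39902275 to 39928444) and IDO2 (39934614 to 40016391) are neighbours on the plus strand of chromosome 8 and share no exonic base, and of this adjacent pair IDO1 fell while IDO2 was near the limit of detection in both groups.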

How the data were processed

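Total RNA of BT-549 cells was sequenced after TruSeq Stranded mRNA preparation. The deposited table holds raw, unnormalized counts for each gene symbol. The submitters' processing notes name CASAVA 1.8.2, STAR 2.7.9a, featureCounts, DESeq2 1.24.0 and GRCh38.p7, while the annotation release and strand setting are not given in the sources used here. Counts from 2 to 11 were even in 72.1% to 75.2% of cases per sample, so the mates of a pair appear to have been counted singly. Genes were tested with edgeR 4.0.16 (R 4.3.3), with the quasi-likelihood test, group as single factor, TMM scaling, filterByExpr (minimum count 10) and p-values adjusted by Benjamini-Hochberg over 18851 genes. SE is the log2 fold change divided by the square root of F. DESeq2 1.42.0, other scalings and filters, halved counts and leaving out each sample were alternatives. Thinning of all libraries to the smallest total and the second length were chosen after seeing the data. The permutation test of the IDO1 to TDO2 ratio was not planned. Scripts were tested on simulated data. Gene lengths are from GENCODE release 29.

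The members and lists were chosen with earlier results of these data known. Genes named were the 9 members, IRF1, up to 5 genes per pathway list with the smallest adjusted p, the 5 nearest to IDO1, and IL4I1, WARS1, CYP1A1, CYP1B1, AHRR and TIPARP. Marker genes, C5orf56 and the genes said to be so were named outside this rule. Floors cover counting error only. The samples are called triplicate cultures, and replicates of a group differed by more than sampling noise (chi-square per degree of freedom 5.67 to 13.9 on halved counts). If they share a culture, the p-values measure technical spread. A further gene first chosen for the list of AHR partners and targets was left out of its counts and is not reported here.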

Additional observations from a re-analysis of the deposited data

How the results depend on the processing

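Of 885 values recomputed under the alternatives, 841 led to the same call or, for a count of genes, to one within 1.5 times. A call was lost in 30 and gained in 2, a count moved further in 7, and a sign reversed in 5. IDO1, KMO, KYNU, QPRT and AHR were called lower in each alternative run, IDO1 between −2.89 and −2.51 and IRF1 between −1.79 and −1.69. Leaving out 1 sample gave 0 to 2 members called higher, since AFMID was lost without IRF1shRNA replicates 1 or 3 and HAAO gained without replicate 2, and 5 to 6 called lower. The AHR list had 3 genes called lower with thinned libraries and 3 to 6 across the fits without 1 sample. The other tryptophan catabolism list had 1 called lower when 1 CPM was required in 3 samples, and 1 to 3 without 1 sample. The cause was not tested. CYP1B1 reversed under upper quartile scaling (0.015) and library size only (0.022), and ranged from −0.094 to 0.031 without 1 sample, reversing without control replicate 1 and IRF1shRNA replicate 2 (0.0055). TIPARP reversed under library size only (0.0042). CYP1A1 and ARNT2 were not called with thinned libraries (−0.44 and −0.43). The median over all genes was 0.041 with upper quartile scaling and 0.049 with library size only. HAAO has no value with halved counts, thinned libraries or the 1 CPM filter, since it no longer passed. With the replicate block IDO1 was at −2.76, and 5 members were called lower and 1 higher. The deviations of same-numbered samples correlated at 0.0137, 0.0250 and −0.00724, so the numbers were not taken as pairs, and 3 of 6 samples correlated best with their own number. Depth limits HAAO and IDO2, at no more than 29 and 10 counts in any library.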
